A study of Homo sapiens with 6 samples.

Results

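The 10 BCL2 family genes BCL2L1, MCL1, BAX, BAK1, BBC3, PMAIP1, BCL2L11, BID, BAD and BIK were compared between unirradiated and irradiated MDA-MB-231 cells. MDA-MB-231 is a human breast adenocarcinoma line of basal-like, mesenchymal type, and the radiation was ionising. Members were taken by gene symbol, and each of the 10 matched a row among the 58735 genes of the expression table. Poly(A)-enriched RNA was sequenced from 3 control libraries (0 Gy) and 3 libraries of cells that had received 10 Gy of gamma rays from a sealed caesium source, with RNA taken 24 h later. The cells of both groups are listed with genotype WT, and their libraries carry the name SCR, which the study uses for cells with a non-targeting shRNA. It is a single cultured line, and the labels do not say whether replicates came from separate cultures, so p-values measure the spread between these libraries, which may be technical.

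BCL2 family proteins decide at the outer mitochondrial membrane whether a cell enters the intrinsic pathway of apoptosis. Anti-apoptotic members (here BCL2L1, which encodes BCL-XL, and MCL1) hold the pore-forming effectors BAX and BAK1 in check, and BH3-only members (BBC3 or PUMA, PMAIP1 or NOXA, BCL2L11 or BIM, BID, BAD and BIK) bind the anti-apoptotic proteins or activate the effectors. Much of this control acts on the proteins, through their stability, phosphorylation and cleavage, and RNA levels show none of it.

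Upstream sequence was read from RefSeq (GRCh38.p14) as the 250 bases before each transcript start. The table of promoters held 14 starts for 8 of the 10 members. MCL1 and BIK had no entry there. BAX and BCL2L1 are shown because they had the largest changes among the members after radiation. The BAX window is chr19:48954625-48954874 on the plus strand and the BCL2L1 window is chr20:31723964-31724213 on the minus strand. Capitals mark the E-box CACGTG, the palindromic core bound by MYC and related proteins.

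BAX: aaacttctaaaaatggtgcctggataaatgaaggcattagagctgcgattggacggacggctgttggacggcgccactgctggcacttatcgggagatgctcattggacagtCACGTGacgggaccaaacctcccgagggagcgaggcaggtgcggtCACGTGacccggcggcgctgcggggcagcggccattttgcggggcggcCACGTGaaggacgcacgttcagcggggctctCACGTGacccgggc

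BCL2L1: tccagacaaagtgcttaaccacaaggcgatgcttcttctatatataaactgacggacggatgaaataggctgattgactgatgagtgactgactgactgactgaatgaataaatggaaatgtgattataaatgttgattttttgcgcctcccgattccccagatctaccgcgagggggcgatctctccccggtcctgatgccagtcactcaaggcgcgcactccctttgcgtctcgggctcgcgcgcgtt

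The BAX window held 4 E-boxes, ending 132, 87, 39 and 8 bases before the transcript start. At least 4 were found in 5 of 35116 promoters of the same length (0.0142%), BAX among them. The cutoff of 4 is the count of BAX itself, and the motifs were chosen after the promoters had been read. The share is thus a description and not a test. At least 1 E-box was found in 6.35% of all promoters. BBC3 held 1 E-box, and the overlapping windows of 2 BID starts also held 1, while neither BCL2L1 window held any. Of the other motifs searched on both strands, TGANTCA (AP-1; 6.57% of all promoters) was found once, in BBC3. The loose NF-kB motif (54.4% of all promoters) was in the windows of BAD, BAK1, BBC3, BCL2L11, BID and PMAIP1, and in neither BAX nor BCL2L1. TGATGNAA (ATF4 and DDIT3; 3.14%) and GCGCGAAA (E2F; 0.439%) were in no member's window. These are matches of letters and not measurements of binding.

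Values were deposited as FPKM, fragments scaled to sequencing depth and to a single length per gene. Whether that length matches the transcripts present is not known here, so comparisons of level between genes carry that limit. The steps between low values gave back whole reads (100% of values within 0.02 of a whole number), from 15643641 to 28861781 reads per library. Pearson correlations were at least 0.992 within a group and at most 0.989 between the groups. Of the genes in the table, 12128 averaged 1 FPKM or more over the 6 libraries. For these, limma was fitted to log2(FPKM + 1), and a gene was called at a Benjamini-Hochberg adjusted p under 0.05 across all of them. The series holds many small changes. 4317 genes were called, 33.4% of them higher, and leaving out irradiated replicate 1 or 2 lowered this count to 2705 or 2660. After each library was rescaled to the same FPKM total, the median log2 change of all genes moved from -0.04 to 0.07 and 74.5% of 4198 calls were higher. Values below are on the deposited scaling. Where rescaling changed calls of list genes, the paragraph on that list names the genes or gives the counts after rescaling. For the members, changed calls and signs are given together in the paragraph on scaling. The line's markers VIM, CD44, KRT18 and KRT8 were all expressed, with a summed level of 565 to 607 FPKM in controls and 524 to 538 FPKM after radiation. VIM (log2 change -0.26) and CD44 (-0.11) were called lower on the deposited scaling, KRT8 and KRT18 were not called, and after rescaling VIM was called lower and KRT8 higher. The luminal list summed to 1.64 to 1.88 FPKM in controls and 1.69 to 1.75 FPKM after radiation. Of its 4 genes, 1 passed the filter and was not called, and PGR was at 0. CD3E of the leukocyte list was also at 0, and no gene of that list passed the filter. The endothelial list summed to 2.10 to 2.52 FPKM in controls and 2.85 to 3.13 FPKM after radiation, with PECAM1 called higher. The fibroblast list summed to 2.98 to 3.12 FPKM and 4.08 to 4.39 FPKM, with COL1A1 called higher. The part of these genes in the results was not tested.

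In unirradiated cells, the anti-apoptotic genes were the most abundant members. BCL2L1 had a level of 101 ± 3.55 FPKM (SD, n = 3) and MCL1 95.2 ± 1.37 FPKM, and together they made up 53.3% ± 0.567 of the summed FPKM of the 10 genes. The effectors followed, BAX at 45.1 ± 1.48 FPKM and BAK1 at 31.8 ± 0.724 FPKM. BH3-only genes spread over the whole remaining range. PMAIP1 reached 43.7 ± 2.27 FPKM, level with BAX, since their replicates overlapped. BAD at 27.9 ± 3.11 FPKM overlapped with BAK1 in the same way. BID (11.5 ± 1.14 FPKM), BIK (6.49 ± 0.842 FPKM), BBC3 (3.45 ± 0.609 FPKM) and BCL2L11 (2.21 ± 0.0772 FPKM) followed in that order, each apart from its neighbours. After 10 Gy the order changed in a single place: PMAIP1 stood above BAX, with no overlap between their replicates. BCL2L1 (82.8 ± 2.18 FPKM) and MCL1 (82.7 ± 1.36 FPKM) were then no longer apart from each other.

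**Figure D1:**
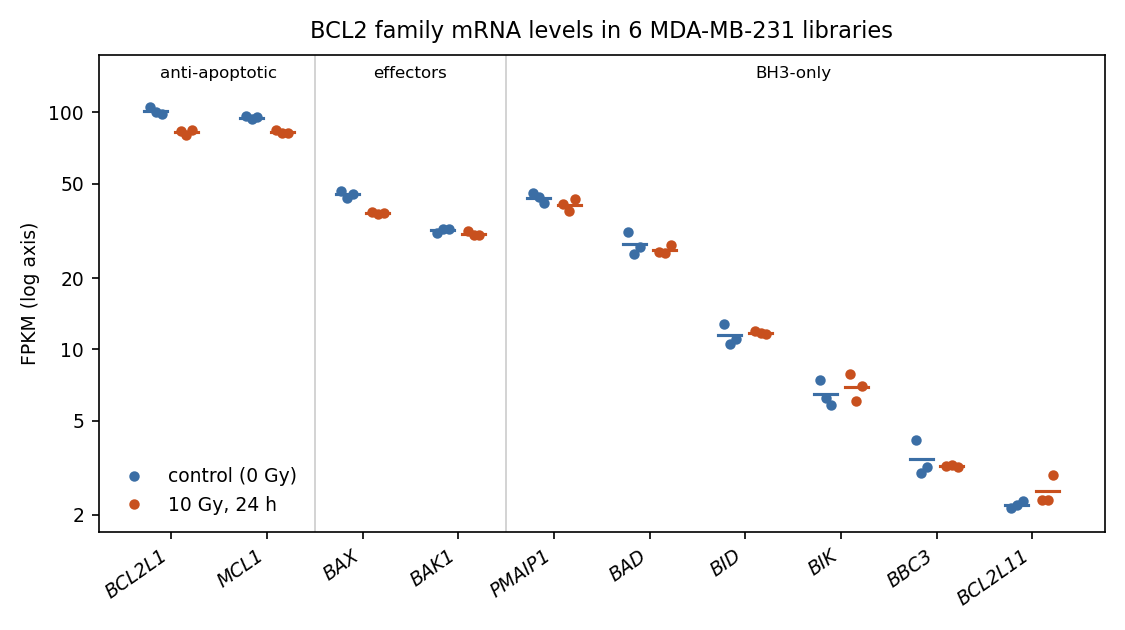
Level of each of the 10 BCL2 family genes in FPKM (log axis) in the 3 control libraries (blue) and the 3 libraries taken 24 h after 10 Gy (orange), with points for libraries and short bars for group means. The anti-apoptotic genes lie highest, and the irradiated points of BCL2L1, MCL1 and BAX lie below all of their control points.

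Radiation was followed by small decreases in BCL2L1, MCL1 and BAX, and no member was called higher. All 10 members passed the filter and 3 of them were called, all lower, against a background of 35.6% of genes called in either direction and 23.7% called lower. The replicates of 4 members did not overlap between the groups (3 lower and BCL2L11 higher), against 51.9% of all genes tested (32.8% lower and 19.1% higher). None of the members passed both the adjusted p and a change of at least 1.3-fold, the size of change that the study used elsewhere, while 5.77% of all genes did. The median log2 change of the members was -0.07, beside -0.04 for all genes tested. The share of members called is thus near that of genes in general.

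Both anti-apoptotic members fell. BCL2L1 (chr20:31664452-31723989, minus strand) read 105, 100.1 and 98.6 FPKM in the controls and 83.3, 80.4 and 84.6 FPKM after 10 Gy. The lowest control lay well above the highest irradiated library, and the log2 change was -0.29 (SE 0.038, limma adjusted p = 0.0020). MCL1, whose protein is short-lived and is held up by continuous synthesis (chr1:150574551-150579738, minus strand), read 96.3, 93.7 and 95.6 FPKM in the controls. After radiation its libraries read 84.3, 81.7 and 82.2 FPKM. These groups did not overlap either, with a log2 change of -0.20 (SE 0.029, limma adjusted p = 0.0030). Both genes can be spliced into forms with opposite effects on cell death, and values per gene do not separate these forms. BCL2L1 was backed by 4862 to 8255 reads per library and MCL1 by 6293 to 11015.

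The effectors differed from each other in their tests. BAX, whose protein moves from the cytosol to mitochondria when activated (chr19:48954815-48961798, plus strand), read 46.5, 43.6 and 45.2 FPKM in the controls and 37.9, 37.3 and 37.5 FPKM after 10 Gy. The irradiated libraries had an SD of 0.298 FPKM and lay far below the controls, with a log2 change of -0.26 (SE 0.033, limma adjusted p = 0.0019). BAK1, which resides in the mitochondrial membrane (chr6:33572547-33580293, minus strand), read 31.0, 32.2 and 32.3 FPKM and then 31.7, 30.2 and 30.4 FPKM. Its groups overlapped, and its log2 change of -0.05 had a 95% interval from -0.12 to 0.03 (limma adjusted p = 0.31). The processed pseudogene BAK1P1 had its own level of 1.19 FPKM in controls and 1.27 FPKM after radiation, and how reads were divided between them is not known here.

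Of the 6 BH3-only genes, none was called. PMAIP1, a sensitizer that binds MCL1 (chr18:59899948-59904306), read 45.9, 43.9 and 41.4 FPKM in controls and 41.2, 38.3 and 43.0 FPKM after radiation, with a log2 change of -0.10 (95% interval -0.22 to 0.03, limma adjusted p = 0.20). BBC3, a gene induced by many forms of stress (chr19:47220822-47232766), read 4.14, 3.01 and 3.19 FPKM and then 3.21, 3.26 and 3.18 FPKM. Control replicate 1 alone set its higher control mean: the log2 change of -0.07 (95% interval -0.29 to 0.15) became 0.04 without that library. BCL2L11, an activator that binds all anti-apoptotic members (chr2:111119378-111168447), was the one BH3-only gene with groups that did not overlap. Its controls read 2.13, 2.21 and 2.29 FPKM and its irradiated libraries 2.31, 2.31 and 2.96 FPKM. A single irradiated library stood apart while the other two were just above the highest control, and the log2 change of 0.13 did not pass (95% interval -0.06 to 0.32, limma adjusted p = 0.24). Alternative splicing of BCL2L11 likewise gives forms of unequal potency that were not separated here.

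BID, the substrate through which CASP8 links death receptors to mitochondria (chr22:17734138-17774770), read 12.8, 10.6 and 11.1 FPKM in controls and 11.9, 11.7 and 11.6 FPKM after 10 Gy. Its irradiated values lay within the range of the controls (log2 change 0.03, 95% interval -0.12 to 0.18), and the log2 change was -0.02 without control replicate 2. BAD, a partner of BCL2L1 that growth factor signalling keeps phosphorylated (chr11:64269830-64284704), read 31.4, 25.3 and 27.0 FPKM and then 25.7, 25.6 and 27.6 FPKM. Its log2 change was -0.08 (95% interval -0.25 to 0.10) and 0.01 without control replicate 1. BIK, found mainly at the endoplasmic reticulum (chr22:43110748-43129712), read 7.43, 6.21 and 5.81 FPKM and then 7.86, 6.04 and 6.98 FPKM. Its log2 change was 0.09 (95% interval -0.16 to 0.33) on 91 to 224 reads per library, the thinnest support of any member. The intervals of BBC3, BCL2L11 and BIK each include a change as large as that of BAX in at least one direction, so the intervals do not exclude a change of that size for them.

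The choice of scaling moved every member: rescaling to equal totals raised each log2 change. With libraries rescaled to equal totals, the log2 change of BCL2L1 was -0.16 (limma adjusted p = 0.0053) and that of BAX -0.13 (adjusted p = 0.016), and both remained called. MCL1 then had a log2 change of -0.07 and lost its call (limma adjusted p = 0.10), so 2 members were called lower, against 8.83% of all genes called lower and 34.6% called in either direction under that scaling. BAK1, BBC3, PMAIP1 and BAD changed sign, to log2 values of 0.08, 0.03, 0.03 and 0.05, and none was called. BCL2L11 (0.22, adjusted p = 0.064) and BID (0.15, adjusted p = 0.082) came closest to a call in the upward direction. With median-of-ratios scaling, which sets the median log2 change of all genes near 0, BCL2L1, BAX and MCL1 were all called lower, at -0.24, -0.21 and -0.15.

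**Figure D2:**
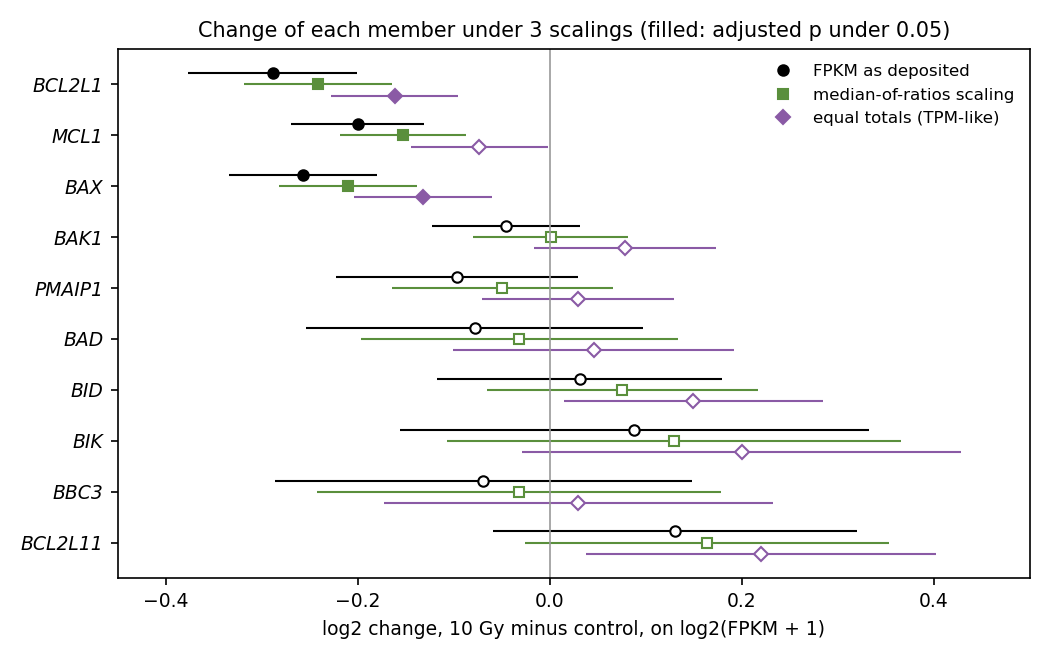
Log2 change of each member on log2(FPKM + 1), 10 Gy minus control, with 95% intervals from limma, for FPKM as deposited (black), median-of-ratios scaling (green) and rescaling to equal totals (violet). Filled points have an adjusted p under 0.05: BCL2L1 and BAX are filled under each scaling, and MCL1 is open at -0.07 after rescaling to equal totals.

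Ratios between members within a library do not depend on the scaling, and they are given as a description with no test. The ratio of BAX to BCL2L1 read 0.441, 0.435 and 0.458 in controls and 0.455, 0.464 and 0.443 after 10 Gy, so the balance between these genes overlapped between the groups while both fell. BAK1 gained on BCL2L1, from 0.294, 0.321 and 0.327 to 0.380, 0.376 and 0.360. It also gained on BAX, with ratios of 0.666, 0.739 and 0.714 in controls and 0.837, 0.811 and 0.812 after radiation. The groups did not overlap for these BAK1 ratios. The log2 change of BAK1 (-0.05) was near the median of all genes tested (-0.04). Only 7.98% of genes tested had a lower log2 change than BCL2L1, and 10.6% than BAX. How often other genes gained on BCL2L1 or BAX in the same way was not counted. The ratio of BCL2L11 to BCL2L1 was 0.0203, 0.0221 and 0.0232 in controls and 0.0277, 0.0288 and 0.0349 in irradiated cells, a mean 1.40 times that of controls. MCL1 to BCL2L1 read 0.914, 0.936 and 0.970 in controls and 1.01, 1.02 and 0.971 after radiation, so its groups were barely apart. PMAIP1 to MCL1 (0.459 and 0.493) and BBC3 to BCL2L1 (0.0339 and 0.0389) overlapped. Summed by role, the anti-apoptotic share of the 10 genes went from 53.3% ± 0.567 to 50.9% ± 0.312, and the BH3-only share from 25.8% ± 1.12 to 28.1% ± 0.678, with no overlap in either. The effector share was 20.9% ± 0.580 and 21.0% ± 0.370, and overlapped. Abundant genes in general fell more than rare ones, and the part of this in the shares and ratios was not tested. The summed level of all members was 369 ± 12.3 FPKM in controls and 325 ± 7.41 FPKM after radiation.

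**Figure D3:**
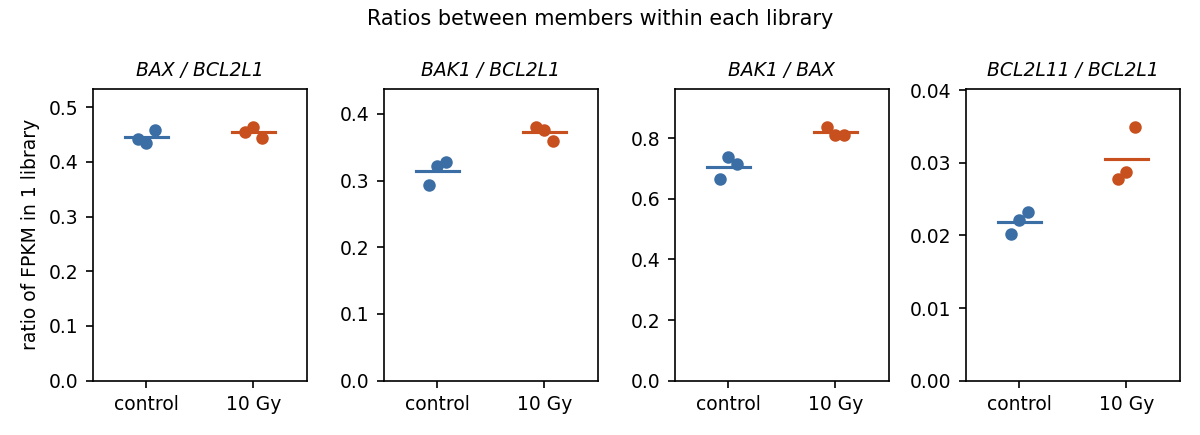
Ratio of the FPKM of 2 members within each library, for the 3 control libraries (blue) and the 3 irradiated libraries (orange), with bars at group means and axes from 0. BAX to BCL2L1 overlaps between groups at about 0.445 and 0.454, while BAK1 to BCL2L1, BAK1 to BAX and BCL2L11 to BCL2L1 are higher in each irradiated library than in any control.

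The members that fell were also among the most abundant, and the same held for genes in general. Among the 798 genes with a mean of 40 to 100 FPKM over all libraries, where BCL2L1, MCL1, BAX and PMAIP1 lie, the median log2 change was -0.13 and 48.0% were called lower. Among the 4866 genes between 1 and 5 FPKM, the range of BBC3 and BCL2L11, the median was 0.03, with 7.28% called lower and 13.4% called higher. The called members thus came from a range of levels in which calls to lower values were common. Over all genes tested, 7.98% had a lower log2 change than BCL2L1, beside 10.6% for BAX, 17.7% for MCL1 and 80.9% for BCL2L11. Gene length moved with the change too, from a median log2 of -0.08 in the shortest quartile of genes to 0.02 in the longest. BAX is in the shortest quartile, as are BAK1, PMAIP1, BAD and BIK, which were not called. BCL2L1 and MCL1 are in the next, as are BBC3 and BID, also not called. No member is in the longest. The part of abundance and length in the members' changes was not tested.

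**Figure D4:**
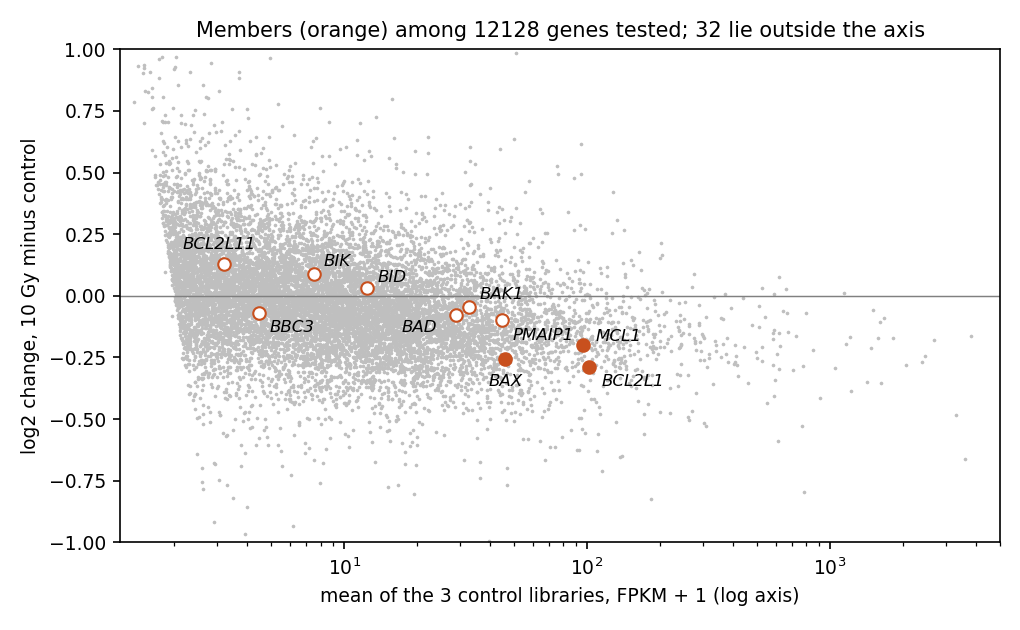
Log2 change, 10 Gy minus control, against the mean of the 3 control libraries in FPKM + 1 (log axis) for 12128 genes tested (grey), with the 10 members in orange, filled where called; 32 genes lie beyond the vertical axis. The cloud bends below 0 at high levels, where BCL2L1, MCL1 and BAX lie.

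The other BCL2 family genes moved both ways. Of 13 listed, 9 passed the filter and 5 were called. Over all genes tested, 35.6% were called on the deposited scaling (11.9% higher and 23.7% lower). After rescaling to equal totals the share was 34.6% (25.8% higher and 8.83% lower). These shares are the background for each list from here on. BMF, a BH3-only gene linked to cytoskeletal stress, rose from 1.05 ± 0.0845 FPKM to 1.75 ± 0.0764 FPKM (log2 change 0.42, SE 0.066, limma adjusted p = 0.0037). BNIP3, which acts in mitophagy, rose by 0.17 (adjusted p = 0.0099), and BCL2L2, which encodes the anti-apoptotic BCL-W, rose by 0.14 (adjusted p = 0.021). BOK, a BAX-like effector, fell by 0.36 (adjusted p = 0.0018), from 16.3 to 12.5 FPKM. BCL2 itself was near the filter, at 1.19 FPKM in controls and 0.841 FPKM after radiation, and fell by 0.25 (adjusted p = 0.035). It passed the filter only through the controls, where it was higher. The call of BCL2 was lost after rescaling to equal totals (log2 value -0.19, limma adjusted p = 0.098) and with median-of-ratios scaling. It was also lost per recovered reads, with a replicate block and with no filter. BCL2A1 (-0.24), BCL2L12 (0.16), BCL2L13 (0.00) and BNIP3L (0.09) were not called on the deposited scaling. After rescaling to equal totals, BCL2L12 (0.29, limma adjusted p = 0.0086) and BNIP3L (0.22, adjusted p = 0.022) were called higher, so that the list held 5 genes called higher and 1 lower. BCL2L12 was also called with median-of-ratios scaling, per recovered reads and with a replicate block, and BNIP3L per recovered reads. BCL2L10 was listed at 0 in each library, and HRK, BCL2L14 and BCL2L15 lay under the filter. Leaving out control replicate 3, irradiated replicate 1 or irradiated replicate 2 lowered the count for this list from 5 to 3. BCL2L2 lost its call in each of these 3 cases, and BCL2 lost its call without any library other than control replicate 1. BCL2L2, at 11.5 FPKM in controls and 12.8 FPKM after radiation, was far below BCL2L1 and MCL1 in both groups.

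Downstream of the pore, genes of the mitochondrial arm were lower or not called under the deposited scaling. Of 16 listed genes for the apoptosome and caspases, 15 passed the filter and 6 were called, all lower. Over all genes tested, 35.6% were called and 23.7% were called lower. Among genes with a mean of 40 to 100 FPKM, the range of CYCS and VDAC3, 48.0% were called lower. The called genes of the list included HTRA2, a mitochondrial protease (-0.30), CYCS, the cytochrome c that forms the apoptosome (-0.29), and the outer membrane channels VDAC3 and VDAC1 (-0.19 each). CASP9 (0.14) and APAF1 (-0.01) were not called. After rescaling to equal totals only HTRA2 and CYCS were called lower, and CASP6 and CASP9 were called higher. Of 7 inhibitors of apoptosis, 5 passed the filter and 4 were called under either scaling: BIRC2 (-0.34) and BIRC3 (-0.28), which act on TNF receptor signalling, were lower, and BIRC6 (0.39) and BIRC5 (0.29), the mitotic protein survivin, were higher. BIRC6 is in the longest quartile of genes, where 17.6% of all genes tested were called higher, and the part of length was not tested. XIAP, the direct caspase inhibitor, had a log2 change of 0.00 and was not called.

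The death receptor arm, which reaches the BCL2 family through BID, held 14 listed genes, of which 11 passed the filter and 6 were called. TNFSF10, the ligand TRAIL (0.33), and its receptors TNFRSF10B (0.19) and TNFRSF10D (0.15) were higher. The adaptor FADD (-0.29), the receptor TNFRSF10A (-0.26) and RIPK1 (-0.14) were lower, but after rescaling to equal totals only FADD was still called lower. CASP8 (0.21, limma adjusted p = 0.017) and CASP10 (0.31, adjusted p = 0.034) were then called higher, which made 5 genes higher and 1 lower. TNFSF10 (0.799 ± 0.205 and 1.25 ± 0.121 FPKM) and CASP10 (0.890 ± 0.163 and 1.23 ± 0.119 FPKM) were near the filter. Both averaged under 1 FPKM in controls and passed the filter only through the irradiated libraries, where they were higher. Their entry into the test was thus tied to the direction of their change. Leaving out control replicate 3, irradiated replicate 1 or irradiated replicate 2 lowered the count for this list from 6 to 3. With each library left out in turn, RIPK1 stayed called for irradiated replicate 3 alone, TNFSF10 for control replicate 2 alone, and TNFRSF10D for control replicate 1 alone. BID, the link between both arms, read 11.5 ± 1.14 and 11.7 ± 0.177 FPKM beside them.

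**Figure D5:**
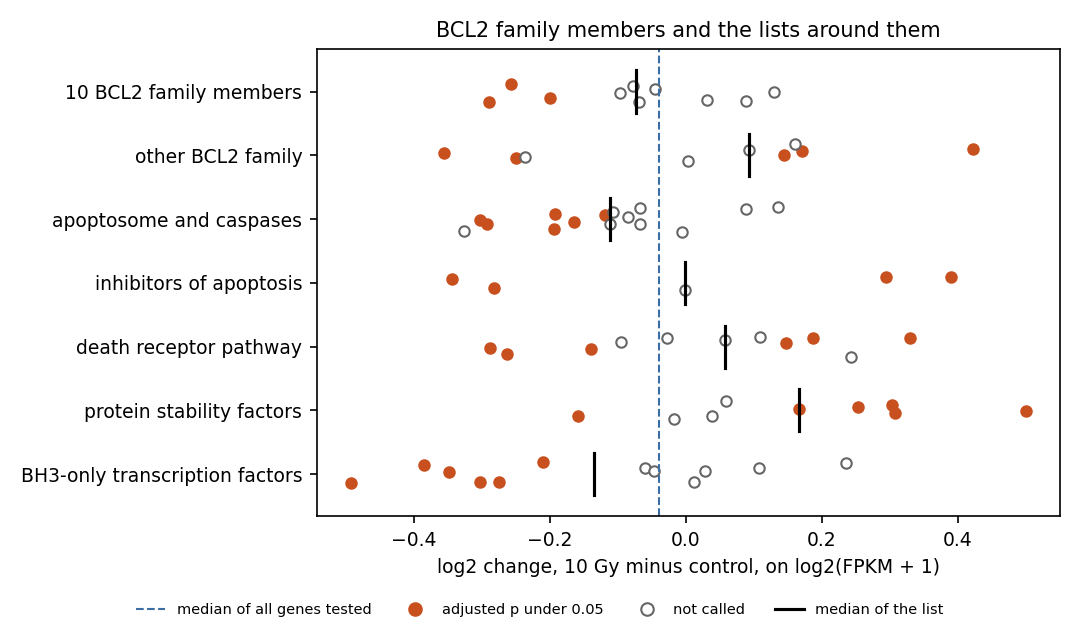
Log2 change on log2(FPKM + 1), 10 Gy minus control, of each gene tested in the 10 members and 6 lists around them, filled where the adjusted p is under 0.05, with a black bar at each list's median and a dashed line at the median of all genes (-0.04). The called members and the called apoptosome genes all lie below 0, and the other lists hold calls on both sides except the BH3-only transcription factors, whose called genes are all lower under the deposited scaling.

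Factors that set the lifetime of the MCL1 and BH3-only proteins were called in both directions on the deposited scaling and only higher after rescaling to equal totals. Of 10 listed, 9 passed the filter and 5 were called higher and 1 lower. HUWE1, a ubiquitin ligase for MCL1, rose from 30.4 ± 3.29 to 43.2 ± 1.75 FPKM (log2 change 0.50, limma adjusted p = 0.0033). CDC20, which targets BCL2L11 and MCL1 in mitosis (0.31), USP9X, the deubiquitinase that stabilizes MCL1 (0.30), and BAG3, a co-chaperone (0.25), rose as well. The list thus held calls for genes with opposing effects on the MCL1 protein, which was not measured. HUWE1 and USP9X are in the longest quartile of genes, where 17.6% were called higher, beside 7.12% in the shortest. CDC20 is in the shortest quartile and BAG3 in the next. The part of length in these changes was not tested. MARCH5, a ligase at mitochondria, fell by 0.16, and was not called after rescaling to equal totals, where its log2 value was -0.04. CUL5 was then called higher (0.16), so that 6 genes were called higher and none lower.

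Transcription factors with BH3-only target genes were lower or not called under the deposited scaling. Of 14 listed, 12 passed the filter and 6 were called, all lower, beside 23.7% of all genes tested called lower. Among genes with a mean of 40 to 100 FPKM, the range of MYC and JUN, 48.0% were called lower. Above 100 FPKM, where ATF4 lies, the share was 56.0%. Between 5 and 20 FPKM, where DDIT3 lies, it was 28.1%. MYC fell from 64.6 ± 1.55 to 45.6 ± 1.26 FPKM (log2 change -0.49, SE 0.034, limma adjusted p = 4.4e-04). JUN (-0.39), DDIT3 (-0.35) and ATF4 (-0.30) fell too, and these 4 were called lower under either scaling. After rescaling to equal totals, 5 were called lower and 3 higher, among them ATF3 and STAT3. Whether any of these factors acts on the members was not tested.

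The genes whose levels followed BCL2L1 most closely over the 6 libraries were ANXA1 (Pearson r = 0.999), BTBD6, RBMX, TEX264 and GALNT18 (r = 0.998 each). As all 6 libraries include the difference between groups, such values were common: 1248 of 12127 genes had r over 0.95. Some members share sequence with other genes, and the sources used here do not say whether reads were counted by strand. BAD overlaps GPR137 on the opposite strand over 14643 bases, and GPR137 had a level of 14.1 FPKM in controls and 12.2 FPKM after 10 Gy. BCL2L11 lies within MIR4435-2HG on the opposite strand (4.72 and 4.08 FPKM), which is more abundant than BCL2L11 itself. BCL2L1 overlaps the antisense RNA ABALON over 1903 bases (6.05 and 5.88 FPKM) and the antisense RNA AL117381.1 over 30610 bases (0.884 and 1.22 FPKM). How reads were divided within these pairs is not known here, so the levels of BAD, BCL2L11 and BCL2L1 are given with that limit.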

How the data were processed

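The authors deposited 1 table of FPKM per gene for 6 libraries (paired-end sequencing at Novogene). Per the labels, reads were aligned with HISAT2 to GRCh38, with no version listed. The counting program is not given in the sources used here. The FPKM divisor was 0.973 to 0.991 of the recovered reads in controls and 1.03 to 1.04 after 10 Gy, so the deposited values hold a factor per library. Precision rests on 15643641 to 28861781 reads per library.

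Groups were taken from the labels. For the 12128 genes averaging 1 FPKM or more, log2(FPKM + 1) was fitted with limma 3.58.1 in R 4.3.3 (eBayes with trend, no block), checked on simulated data, with Benjamini-Hochberg adjustment over all genes. The simulated data held few changed genes and no difference in scaling between the groups, so the check does not cover the effect of scaling. No count model was run. Intervals cover 95%. The members and lists were chosen with earlier results of these data known, and the motifs after the promoters had been read. All members were named, up to 4 called genes in each direction for other lists, and the 5 genes most like BCL2L1. MARCH5 was matched by gene ID because its symbol was altered in the table, and DIABLO by the more abundant of its rows. Alternatives were other pseudocounts, filters and scalings, a replicate block, no trend, and leaving out each library. Scaling by recovered reads was added after seeing the data. Replicate numbers did not pair the libraries. Ratios and changes by gene length and level are described without tests. Some genes of the lists and 1 motif are not reported here.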

Additional observations from a re-analysis of the deposited data

How the results depend on the processing

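The 3 member calls held in each alternative except rescaling to equal totals, where MCL1 (log2 value -0.07, adjusted p = 0.10) was lost and 2 remained. Leaving out each library in turn left 3 members called every time. Members that changed sign were never called. After rescaling these were BAK1 (0.0787), BBC3 (0.0298), PMAIP1 (0.0290) and BAD (0.0455), with DFFA (0.00114) among the apoptosome genes. BAK1 was at 0.000951 with median-of-ratios scaling and at 0.0269 per recovered reads. Leaving out libraries moved BBC3 from -0.140 to 0.0399, BAD from -0.142 to 0.00618, and BID down to -0.0200 without control replicate 2.

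Over all genes, calls that were higher numbered 1443 and calls that were lower 2874. These were 3127 and 1071 after rescaling to equal totals, 2295 and 1651 per recovered reads, and 1945 and 2047 with median-of-ratios scaling. A minimum of 5 FPKM gave 874 higher, and no filter gave 1815 lower. Calls of at least 1.3-fold went from 700 to 1059 with a pseudocount of 0.1 and to 408 with a minimum of 5 FPKM. Leaving out a library gave 2660 to 3993 calls (852 to 1393 higher and 1808 to 2630 lower), 3 to 6 for other BCL2 family genes and 3 to 5 for the death receptor list, which also had 3 with no filter. The cause was not tested.

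A paired analysis was run although replicate numbers did not pair the libraries: deviations of same-numbered libraries correlated at -0.0405, -0.0349 and -0.101. With the replicate block 3503 genes were called, 1137 higher and 2366 lower, and 3 members. The fewest reads per library were behind BIK (91 to 224), BBC3 (147 to 305) and BCL2L11 (226 to 460).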
